A study of Homo sapiens with 12 samples.

Results

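The U5 small nuclear RNA genes RNU5A-1 (ENSG00000199568), RNU5B-1 (ENSG00000200156), RNU5D-1 (ENSG00000200169) and RNU5E-1 (ENSG00000199347) were followed through 12 ribosome footprint libraries. They are 4 of the 57736 distinct gene IDs in the coverage matrix. Footprints came from HBEC3-KT, a human bronchial epithelial line made immortal in culture, whose genotype was either U2AF1 wt/wt (wild type) or U2AF1 wt/S34F (S34F). All groups were treated with cycloheximide, which stops translating ribosomes, and their lysates were digested with RNase I. Each genotype gave monosome fragments, which 1 ribosome protects from the nuclease, and disome fragments, which a pair of neighbouring ribosomes protects, with 3 biological replicates in each of the 4 groups. The labels do not say whether a genotype was represented by 1 clone, and markers of the cell type were not looked up, since the ID column pairs with the rows of a single library and no table used here names its IDs.

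The U5 RNA is a subunit of the spliceosome. It works with proteins such as PRPF8, SNRNP200 and EFTUD2, and its conserved loop holds the ends of both exons during splicing. Human cells carry several expressed U5 genes whose RNAs share the loop but differ elsewhere, and these RNAs are known as U5 variants. U5 RNA is not translated. U2AF1, the gene that differs between the genotypes, encodes another splicing factor, which recognises the 3′ end of introns.

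The members were chosen by their height and place in the listing of each library. Values in the matrix are mean read coverage per base of a gene, so they are already divided by length and can be set beside each other within a library. In wild-type monosome replicate 1, where the ID column fits the rows, the 4 IDs stood on rows 306, 916, 21603 and 21604. These were the 2 highest rows at 0% to 4% of the listed length (RNU5E-1, then RNU5D-1) and the 2 highest at 68% to 71.5% (RNU5A-1, then RNU5B-1). In the other 11 libraries the same windows were read and the rows were named by their order. RefSeq (GRCh38.p14) lists RNU5E-1 and RNU5D-1 on chromosome 1 and RNU5A-1 and RNU5B-1 as direct neighbours on chromosome 15, all as snRNA genes. Their high level is thus part of the choice and is given as a description, without a test. All 48 values, 4 genes in 12 libraries, were above 0 and were kept.

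The early places matched more closely between libraries than the late ones. RNU5E-1 and RNU5D-1 lay within 0.170 percentage points of their places in wild-type monosome replicate 1, which were 0.974% and 2.92%. RNU5A-1 and RNU5B-1 lay at up to 1.85 points from theirs, 68.8%, and reached 70.6% in wild-type disome replicate 1. The late rows were 2 rows apart in those 11 libraries and adjacent in wild-type monosome replicate 1. The row between them had a coverage of at most 0.135. Just outside the choice, the third row of the late window was lower than RNU5A-1 by a factor of 23.8 to 2522. In the early window the third row was lower than the lower member by a factor of 2.36 to 11.8. The names in these 11 libraries therefore rest on place and order, and not on an ID.

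By summed per-base coverage, the U5 genes dominated the disome libraries. Such a sum counts each gene by its coverage per base, so short genes weigh more in it than in a count of reads. The percentages of a library given here are thus not shares of reads or footprints. The 4 genes together held 77.0%, 76.1% and 78.4% of summed coverage in wild-type disome replicates 1, 2 and 3. They held 61.0%, 62.4% and 82.3% in the S34F disome replicates. RNU5B-1 was the highest row of the library in all 6 of these libraries, and the other 3 genes held ranks 2 to 5. In monosome libraries the 4 genes held 1.36%, 1.37% and 1.56% of coverage in wild-type replicates 1, 2 and 3 and 0.721%, 0.916% and 2.05% in S34F replicates. Their ranks there ran from 2 to 9. A single other row held 95.5% to 96.3% of each monosome library. Outside that row the U5 genes made up 31.8%, 35.8% and 42.6% of wild-type monosome coverage and 16.4%, 20.3% and 51.8% of S34F monosome coverage. In both fractions S34F replicates 1 and 2 were lowest and S34F replicate 3 was highest, so the wild-type values lay inside the range of the S34F values.

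**Figure D1:**
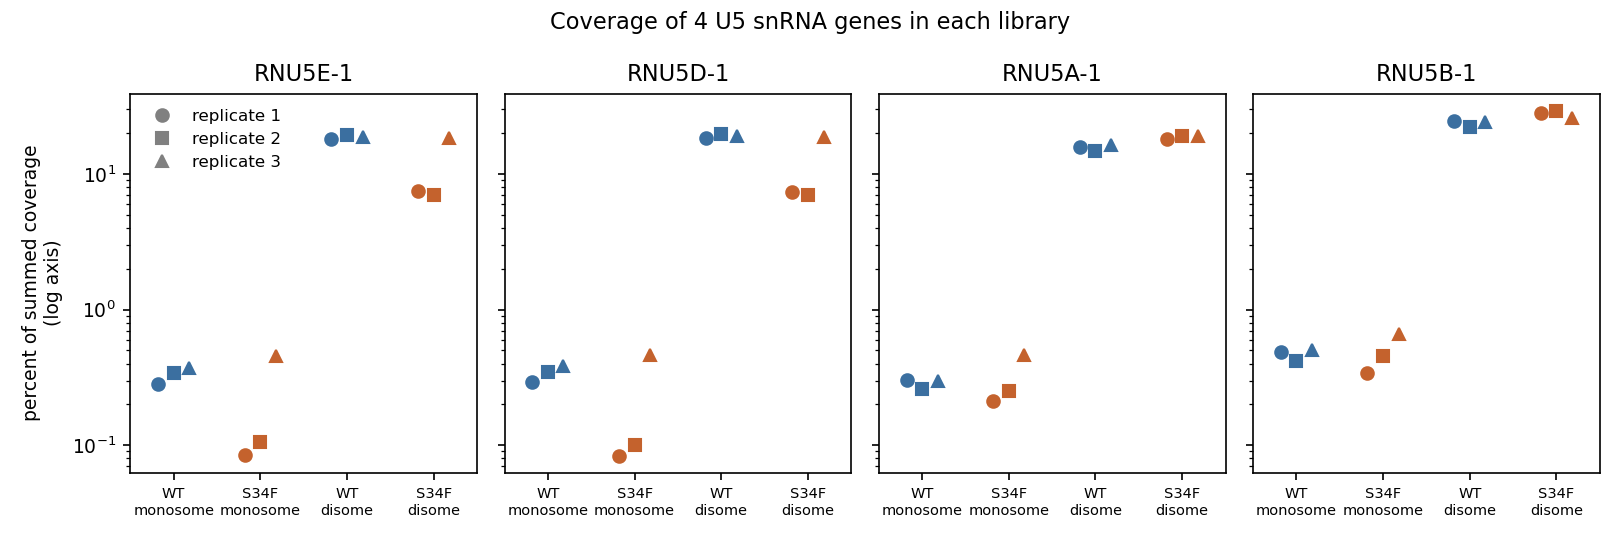
Coverage of each U5 gene as a percent of the summed coverage of its library, on a log axis, for the 3 replicates (symbols) of each group. RNU5E-1 and RNU5D-1 stood at 7.03% to 7.47% and 6.95% to 7.42% in S34F disome replicates 1 and 2, and at 18.1% or more in the other disome libraries.

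RNU5B-1 was the most covered variant in every library. Its share of library coverage was 24.6%, 22.1% and 24.1% in wild-type disomes (replicates 1, 2 and 3) and 28.0%, 29.3% and 26.0% in S34F disomes, with all S34F values above all wild-type values. Rows were not joined across libraries, so how many other genes separate the genotypes in this way is unknown. In monosome libraries it held 0.490%, 0.419% and 0.504% in wild-type cells and 0.340%, 0.457% and 0.664% in S34F cells, and here the genotypes overlapped. Its mean coverage per base ran from 586 in S34F monosome replicate 1 to 241587 in S34F disome replicate 3.

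RNU5A-1 followed the same pattern at a lower level. It held 15.7%, 14.7% and 16.3% of wild-type disome coverage and 18.1%, 19.2% and 19.1% of S34F disome coverage, without overlap. In monosome libraries the values were 0.300%, 0.262% and 0.296% in wild-type and 0.212%, 0.253% and 0.461% in S34F replicates, which overlapped. A percent of the library depends on what else fell or rose in it. As a percent of the coverage outside RNU5E-1 and RNU5D-1, RNU5A-1 and RNU5B-1 together made up 63.6%, 60.6% and 65.1% in wild-type disome replicates. By that measure they made up 54.2%, 56.3% and 71.9% in S34F disome replicates 1, 2 and 3. The separation between the genotypes was thus not present on that denominator: S34F replicates 1 and 2 lay below the wild-type libraries and replicate 3 above them.

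RNU5D-1 and RNU5E-1 were lower in 2 of the 3 S34F replicates. RNU5D-1 held 18.5%, 19.8% and 19.2% of coverage in wild-type disomes, against 7.42%, 6.95% and 18.9% in S34F disome replicates 1, 2 and 3. RNU5E-1 held 18.1%, 19.4% and 18.8% in wild-type disomes and 7.47%, 7.03% and 18.4% in S34F disomes. S34F replicate 3 thus lay inside the wild-type range of both genes, and the other S34F replicates were far below it. In monosome libraries S34F replicates 1 and 2 were again the lowest. RNU5D-1 held 0.292%, 0.349% and 0.382% of wild-type and 0.0839%, 0.101% and 0.466% of S34F monosome coverage. RNU5E-1 held 0.283%, 0.341% and 0.374% of wild-type and 0.0852%, 0.105% and 0.454% of S34F monosome coverage. In monosomes S34F replicate 3 was above all wild-type replicates for both genes.

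The proportions of the variants were then compared as shares of the summed coverage of the 4 genes, which leaves out the rest of the library. The imbalance between the early and the late part of the listing was already known in these data when the genes were chosen, so the shares are described without a test. In wild-type disome libraries the 4 variants took 24.4% ± 1.07 (RNU5E-1), 24.9% ± 1.03 (RNU5D-1), 20.2% ± 0.746 (RNU5A-1) and 30.6% ± 1.46 (RNU5B-1, SD, n = 3 for each). Wild-type monosome libraries had a similar division, with 23.2% ± 2.19, 23.8% ± 2.15, 20.0% ± 1.71 and 32.9% ± 2.70 in the same order (SD, n = 3). In the wild-type profile RNU5B-1 was thus first and RNU5A-1 last in 5 of the 6 libraries. The exception was wild-type monosome replicate 1, in which RNU5E-1 was last.

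S34F replicates 1 and 2 had another profile. RNU5B-1 took 45.9% and 46.9% of disome U5 coverage in S34F replicates 1 and 2 and 31.6% in replicate 3, against 32.0%, 29.1% and 30.7% in wild-type replicates. RNU5A-1 took 29.6%, 30.7% and 23.2% in S34F replicates 1, 2 and 3 and 20.4%, 19.3% and 20.8% in wild-type replicates, so all S34F values were above all wild-type values. The early genes had correspondingly small shares in the same libraries. RNU5D-1 took 12.2%, 11.1% and 22.9% of S34F disome U5 coverage against 24.1%, 26.1% and 24.5% in wild type. RNU5E-1 took 12.3%, 11.3% and 22.3% against 23.5%, 25.6% and 24.0%. Both early genes were lower in all 3 S34F disome libraries than in any wild-type disome library, but S34F replicate 3 lay close to the lowest wild-type values.

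Monosome libraries showed the same pattern replicate by replicate. The labels do not say whether libraries of the same number share a culture, so the fractions cannot be counted as independent. RNU5B-1 took 47.2%, 49.9% and 32.5% of U5 coverage in S34F monosome replicates 1, 2 and 3 and 35.9%, 30.6% and 32.4% in wild-type replicates. RNU5A-1 took 29.4%, 27.6% and 22.5% in S34F and 22.0%, 19.1% and 19.0% in wild-type replicates. These values did not overlap, but S34F replicate 3 lay close to wild-type replicate 1. The early genes overlapped between the genotypes. RNU5D-1 took 11.6%, 11.0% and 22.8% in S34F and 21.4%, 25.5% and 24.6% in wild-type replicates. RNU5E-1 took 11.8%, 11.5% and 22.2% in S34F and 20.7%, 24.9% and 24.0% in wild-type replicates. S34F replicate 3 lay inside the wild-type monosome range for both early genes and for RNU5B-1.

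**Figure D2:**
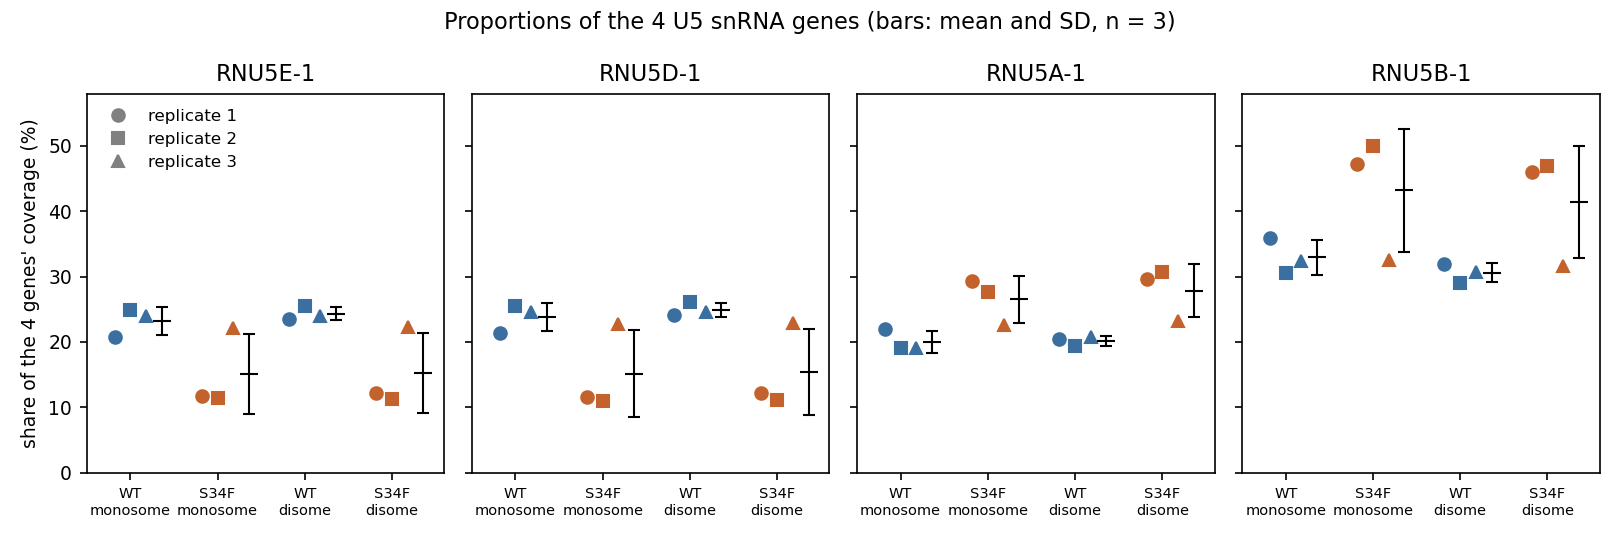
Share of each gene in the summed coverage of the 4 U5 genes, in percent, for each replicate (symbols), with the mean and SD of each group of 3 beside the points. S34F replicates 1 and 2 stand apart from the other libraries in both fractions, with RNU5B-1 at 45.9% to 49.9%.

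The genotype differences in mean share were as follows, as S34F minus wild type. In disome libraries they were -9.09 percentage points for RNU5E-1, -9.50 for RNU5D-1, 7.68 for RNU5A-1 and 10.9 for RNU5B-1. The spread within groups, as the pooled SD, was 4.38, 4.67, 2.92 and 6.14 points in that order. Each difference was therefore larger than 1 pooled SD. Nearly all of that spread was within the S34F group, whose SDs were 6.10, 6.52, 4.06 and 8.56 points (n = 3). In monosome libraries the differences were -8.06, -8.64, 6.46 and 10.2 points, with pooled SDs of 4.58, 4.92, 2.78 and 6.91. Leaving out S34F monosome replicate 3 raised the difference of RNU5B-1 to 15.6 points. Leaving out S34F monosome replicate 1 or 2 instead lowered it to 8.25 or 6.87 points, below the pooled SDs of 8.94 and 7.59. S34F replicates 1 and 2 had summed coverages of 172246 and 218475 (monosome) and 122654 and 192732 (disome), among the lowest of their fractions. S34F replicate 3 had the highest, 767478 and 928406. Wild-type replicate 1 was also low, at 173408 and 197990, and had 42.1% and 47.6% of its U5 coverage in the early genes. The part that depth plays in the shares was not tested.

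Other rows of the early window allowed the level of RNU5D-1 and RNU5E-1 to be set against their surroundings. These rows were looked at after the values had been seen. The third row of that window was taken in each library as the highest row after the 2 members, so its height is part of its choice. It lay 9 to 14 rows after RNU5D-1 in monosome libraries and 14 rows after it in all 6 disome libraries. In wild-type monosome replicate 1 it carried ENSG00000202444. Against the sum of RNU5A-1 and RNU5B-1, RNU5D-1 stood at 46.0%, 53.9% and 47.7% in wild-type disome replicates and at 16.1%, 14.3% and 41.8% in S34F disome replicates. The third row stood at 3.79%, 5.57% and 5.05% in wild-type and 5.43%, 6.08% and 4.84% in S34F disome replicates on the same scale. It was not low in S34F replicates 1 and 2, but a row picked for its height would have been replaced by another had it fallen. In monosome libraries that row stood at 4.01%, 4.71% and 4.49% in wild-type and 5.06%, 5.06% and 4.71% in S34F replicates.

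The row directly after RNU5E-1 behaved likewise. It carried ENSG00000201801 in wild-type monosome replicate 1, and RefSeq lists the pseudogene RNU5E-4P next to RNU5E-1, but the row was not named here. It stood at 2.02%, 2.04% and 1.76% of RNU5A-1 plus RNU5B-1 in wild-type disome replicates and at 2.85%, 2.37% and 1.34% in S34F disome replicates. Against RNU5E-1 itself it was 4.49%, 3.86% and 3.77% in wild-type and 17.6%, 16.3% and 3.30% in S34F disome replicates. The row directly before RNU5D-1 was 4.82%, 4.39% and 4.38% of RNU5D-1 in wild-type and 16.2%, 18.4% and 4.89% in S34F disome replicates. In wild-type monosome replicate 1 the row at that position (ENSG00000126106) was only 0.0065% of RNU5D-1, with a coverage of 0.0328, so the row before RNU5D-1 in the other 11 libraries does not correspond to the one in the listing with IDs. RefSeq lists the snRNA gene RNU5F-1 directly before RNU5D-1, but this row was not named here either. Its coverage is not part of the summed coverage of the 4 genes. In disome libraries the low values of S34F replicates 1 and 2, relative to RNU5A-1 plus RNU5B-1, were thus seen in the rows named RNU5E-1 and RNU5D-1 and not in the row after RNU5E-1. They were not seen in the third row of the window either, but that row was picked by height and cannot decide the matter.

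**Figure D3:**
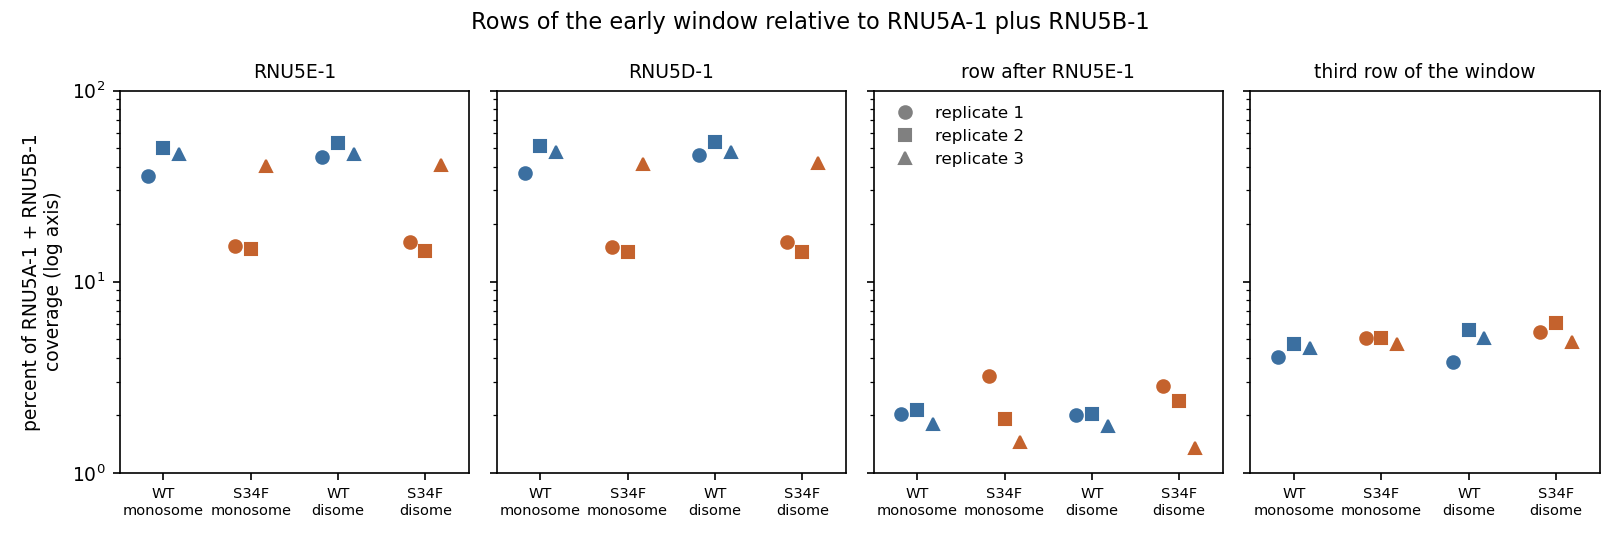
RNU5E-1, RNU5D-1, the row after RNU5E-1 and the third row of the early window, each as a percent of the coverage of RNU5A-1 plus RNU5B-1 in the same library, on a log axis. In S34F replicates 1 and 2 the first 2 stand at 14.2% to 16.2%, and the third row of the window stays between 5.06% and 6.08%.

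Ratios within each pair of genes were not used by the choice of rows and were tested. RNU5E-1 and RNU5D-1 had nearly equal coverage. Their ratio was 0.971, 0.978 and 0.978 in wild-type monosome replicates and 0.975, 0.981 and 0.979 in wild-type disome replicates. S34F monosomes had ratios of 1.01, 1.04 and 0.974, and S34F disomes had ratios of 1.01, 1.01 and 0.973. RNU5E-1 thus exceeded RNU5D-1 only in both fractions of S34F replicates 1 and 2. The genotype difference in the log2 ratio was 0.049 in monosomes (exact permutation test, two-sided p = 0.3, adjusted p = 0.8). For disomes it was 0.028 (p = 0.4 by the same exact test, adjusted p = 0.8). Without S34F replicate 3 these differences were 0.074 and 0.046 (exact p = 0.1 in both). The smallest p that 3 against 3 libraries can give is 0.1, so no genotype difference could pass the threshold of 0.05.

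RNU5B-1 exceeded RNU5A-1 in every library. The ratio of RNU5B-1 to RNU5A-1 was 1.63, 1.60 and 1.70 in wild-type monosome replicates and 1.60, 1.81 and 1.44 in S34F monosome replicates. In disome libraries it was 1.56, 1.50 and 1.48 in wild-type and 1.55, 1.53 and 1.36 in S34F replicates. The genotypes overlapped in both fractions. The genotype difference in the log2 ratio was -0.029 in monosomes and -0.037 in disomes, and the exact test gave p = 0.8 for each (adjusted p = 0.8). Both were smaller than the pooled SDs of 0.12 and 0.078. With 3 against 3 libraries these tests could not have detected a difference, and leaving out S34F replicate 3 turned both signs, to 0.052 in monosomes and 0.022 in disomes.

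Between the fractions, the ratio of RNU5B-1 to RNU5A-1 was lower in the disome library of all 6 pairs with the same genotype and number, with differences from -0.285 to -0.0541. The log2 difference, disome minus monosome, was -0.12 over both genotypes, a ratio of 0.919 (exact permutation test within genotypes, 400 arrangements, p = 0.045). With the exact p values adjusted over the 6 tests by the Benjamini-Hochberg method, it missed the threshold (adjusted p = 0.27). Dropping S34F monosome replicate 3, which had the lowest monosome ratio, could only widen this difference, and gave -0.16 (exact p = 0.005, adjusted p = 0.03). Of the 12 single removals tried for this difference, no other passed the threshold after adjustment. Their exact p values ran from 0.005 to 0.15. Dropping S34F monosome replicate 2 instead gave -0.080 (exact p = 0.14). The passing value thus depends on which library was dropped and does not replace the result from all 12 libraries. With the libraries paired by number the exact p was 0.0312, below which 6 pairs cannot go (adjusted p = 0.188). The ratio of RNU5E-1 to RNU5D-1 showed no detectable change from monosome to disome over both genotypes (log2 difference -0.0062, exact test p = 0.73, adjusted p = 0.8). That value averages opposite directions. Disome ratios exceeded their monosome partners in all 3 wild-type pairs, with differences from 0.00128 to 0.00443, and were lower in all 3 S34F pairs, with differences from -0.0270 to -0.000761. The difference between the genotypes in this change was not tested.

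**Figure D4:**
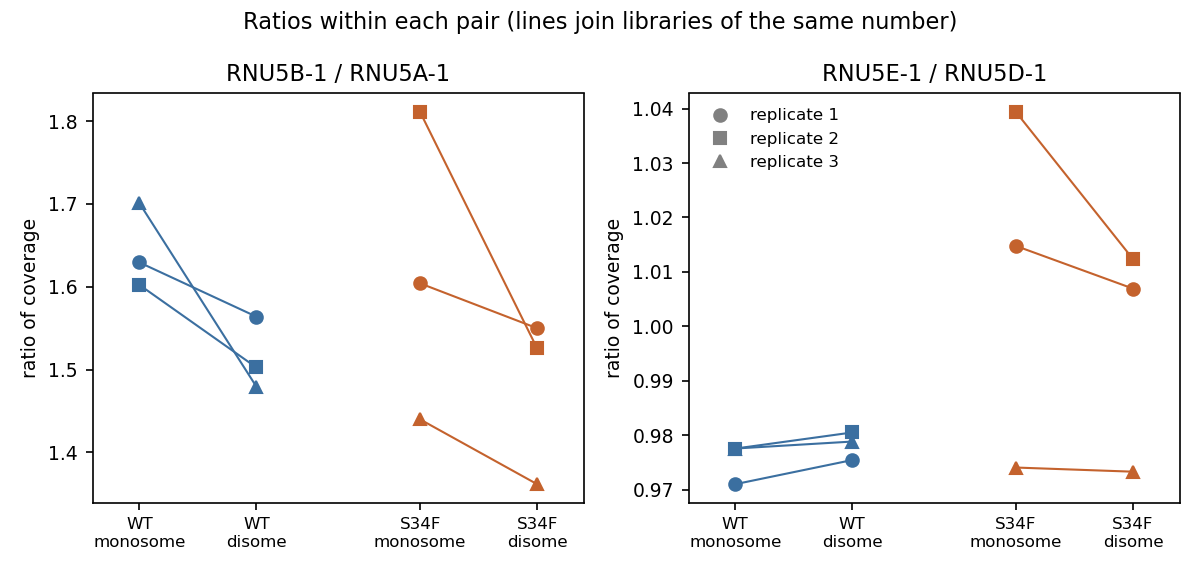
Ratio of coverage of RNU5B-1 to RNU5A-1 (left) and of RNU5E-1 to RNU5D-1 (right), with a line from the monosome to the disome library for each genotype and number. All 6 lines of the left panel fall, and on the right only S34F replicates 1 and 2 exceed a ratio of 1; neither axis starts at 0.

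The shares themselves moved little between fractions. Within the 6 pairs the share of RNU5B-1 was lower in the disome library in all 6, with differences from -3.92 to -0.860 percentage points. The share of RNU5A-1 was higher in 5 pairs and lower in 1, with differences from -1.59 to 3.16 points. RNU5D-1 was higher in 5 pairs and RNU5E-1 in 4, by at most 2.74 and 2.77 points. Averaged over both genotypes, the differences were 0.626 points for RNU5E-1, 0.673 for RNU5D-1, 0.741 for RNU5A-1 and -2.04 for RNU5B-1, all within the pooled SDs of 4.48, 4.80, 2.85 and 6.54. Unscaled coverage in the disome library was higher than in the monosome library by 47.4 to 58.6 times for RNU5B-1 and by 50.1 to 67.0 times for RNU5A-1. For RNU5D-1 and RNU5E-1 the range was 48.9 to 72.6 and 48.9 to 73.0 times. These folds hold the difference in depth and in fragment length between the libraries of a pair.

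How reads that map to several U5 copies were assigned is not given in the sources used here. The genes of this family resemble each other in sequence, so part of the coverage of a variant may belong to another copy, and the split between variants is uncertain to that extent. Fewer RNA molecules and a smaller recovery of them in the footprint libraries cannot be told apart either.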

How the data were processed

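The members and all measures were chosen with earlier results of these data known. The deposited values are mean per-base coverage per gene (signal), which the authors computed against hg19 using StringTie, as the submitters' processing notes state; versions, aligner and scaling are not given in the sources used here. All 12 columns were matched to samples by name, and 0 were left unmatched. Read depth is unknown, so no counting interval is given. Each p-value is the share of arrangements of the libraries that gave a difference at least as large as the one seen.

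Rows of different columns do not hold the same gene and were not joined, so no model across genes was fitted. The listed length of a column was its rows before the trailing run of cells written 0.0 or blank. The 2 highest rows of each window were accepted within 2 percentage points of their place in wild-type monosome replicate 1. A tolerance of 1 point had been set first and was widened after the late places had been seen: it would have kept RNU5A-1 and RNU5B-1 in 4 libraries, none of them disome.

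The text names the 4 members and the rows beside them. Log2 ratios within each pair of genes were compared between groups by their means, with exact permutation tests (two-sided) over 20 arrangements for 3 against 3 and 400 within genotypes, adjusted over these 6 tests. The procedures were tested on simulated data, in Python 3.11.15 with NumPy 2.4.6. The simulated rows stood far above their background, so this checked the code and not the names of rows in the 11 libraries without IDs. RefSeq tables (GRCh38.p14) listed all 4 genes, carried 0 Ensembl IDs and held sequences for 0 of the members, so none is printed. For want of Ensembl IDs, the planned look-up of other spliceosomal RNAs, U5 proteins and cell type markers was not run.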

Additional observations from a re-analysis of the deposited data

Results flagged for a closer look

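Changes from monosome to disome were listed here only if their sign separated all wild-type pairs from all S34F pairs. That separation is thus the rule of the listing and no support by itself. The changes looked through were those in both ratios, in the summed share of RNU5E-1 and RNU5D-1, and in the share of each gene. Only the change in the RNU5E-1 to RNU5D-1 ratio met this rule. It was positive in all 3 wild-type pairs (mean 0.00289, SD 0.00158, n = 3) and negative in all 3 S34F pairs (mean -0.0119, SD 0.0136, n = 3). The S34F mean was thus -0.0148 relative to the wild-type mean. This difference was not tested, and it rests on pairing libraries by number, which the labels do not state to mark a shared culture. Among the S34F pairs, replicate 2 had the largest change, -0.0270, with -0.00784 in replicate 1 and only -0.000761 in replicate 3.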

How the results depend on the processing

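With the listed length taken to the last row above 0, all 18 differences were unchanged. As centred log ratios, the 12 share differences kept their direction and stayed on the same side of 1 pooled SD. The shares had no test and so no call. With the tolerance of 1 point, the monosome difference in log2 RNU5B-1 to RNU5A-1 turned to 0.034 (2 libraries a group); disome values of the late genes could not be had. With 0.5 points, or with the highest row within 0.5 points of each reference place, only the RNU5E-1 to RNU5D-1 ratio could be computed, with no change. Replicate numbers are shared by the groups, but the labels do not say that they mark a shared culture. With libraries paired by number (replicate block), the paired exact p values were 0.5, 0.5 and 0.531 for RNU5E-1 to RNU5D-1 (log2 differences 0.049, 0.028 and -0.0062). They were 0.75, 0.75 and 0.0312 for RNU5B-1 to RNU5A-1. The smallest p is 0.25 for 3 pairs and 0.0312 for 6 pairs. After adjustment over the 6 tests no call could therefore have changed, and this setting says nothing on how stable the calls are.

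Leaving out 1 library at a time left 131 differences the same, 12 that reversed and 1 that passed the threshold. For the log2 ratios, the same means the same direction and call. For the shares, which had no test and so no call, it means the same direction and a move of less than 1 pooled SD. The reversals were all in differences smaller than the pooled SD. The log2 RNU5B-1 to RNU5A-1 difference between genotypes ran from -0.11 to 0.052 in monosome and from -0.072 to 0.022 in disome libraries, and that between fractions from -0.16 to -0.080. The log2 RNU5E-1 to RNU5D-1 difference between fractions ran from -0.019 to 0.0044, and those between genotypes from 0.028 to 0.074 in monosome and 0.017 to 0.046 in disome libraries. Between fractions, the share differences ran from -1.13 to 2.39 points for RNU5E-1, -1.20 to 2.58 for RNU5D-1, -0.249 to 1.90 for RNU5A-1 and -4.72 to 0.428 for RNU5B-1. Share differences between genotypes kept their direction: in disome libraries -12.6 to -7.09 points (RNU5E-1), -13.2 to -7.36 (RNU5D-1), 6.25 to 10.0 (RNU5A-1) and 8.20 to 15.8 (RNU5B-1), and in monosome libraries -11.6 to -6.21, -12.5 to -6.58, 5.01 to 8.44 and 6.87 to 15.6.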
